A study of Mus musculus with 30 samples.

Results

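Class 1 is one of the classes into which the authors sorted 14559 Esrrb peaks of mouse embryonic stem (ES) cells. It holds 450 peaks that the deposited table calls Bookmarked, taken here as the rows with class 1. Classes 2 and 3 are also called Bookmarked and hold 1216 and 314 peaks, and the other 12579 peaks are called Lost. The classes were set on the ChIP-seq heights, by a rule and threshold that neither the labels nor the file headers state. Heights of class 1 are therefore given as a description with no test.

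Esrrb is an orphan nuclear receptor of the estrogen-related receptor (ERR) family. It binds DNA as a monomer at an extended hormone response element and is part of the transcription factor network that keeps mouse ES cells in the naive state. Many transcription factors have been reported to leave condensed chromosomes when cells divide, and a factor that stays on part of its sites through mitosis is said to bookmark them.

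All cells were of strain 129/Ola and grew in serum medium with LIF. Esrrb ChIP-seq was made from asynchronous cells, called interphase here, and from mitotic cells collected by shake-off, with 4 libraries of each under doxycycline (DOX) and 2 of each after 48 h without DOX. The line was EKOiE, known from the study as an Esrrb knockout rescued by a DOX-inducible Esrrb transgene, and only the DOX libraries numbered 2, in both states, were from wild-type E14Tg2a. RNA-seq was made from EKOiE-Ccna-Gfp cells, which a Ccna2-Gfp reporter and cell sorting separated by phase (early G1, late G1 or G2), with 3 libraries per phase under DOX and 3 after 24 h without it. The withdrawn libraries are all EKOiE, so in RNA-seq the DOX controls carry the same knockout and transgene, whereas in ChIP-seq 1 of the 4 DOX libraries of each state carries neither. Asynchronous cells include dividing ones. Nothing in the labels states that the libraries within a group are separate cultures, so p-values measure only the spread between these samples.

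ChIP-seq libraries held 10.7 to 67.5 M (mega) reads, as recovered from the deposited heights, and the smallest was interphase DOX replicate 4. The median class 1 peak held 29 to 124 reads in the 8 DOX libraries and 7 to 33 in the 4 withdrawn ones. Exonic totals were 11.1 to 31.8 M counts and intronic totals 6.1 to 20.8 M. Of 10 ES-cell identity genes, all 10 had a median of at least 10 counts per M (CPM), whereas 6 of 10 fibroblast or feeder genes were under 1 CPM and 1 was at 10 CPM or more. Summed ES-identity levels were 5304 to 6755 CPM with DOX and 4673 to 6552 CPM after withdrawal, and summed fibroblast levels 79.3 to 110.6 and 84.2 to 129.5 CPM. The corresponding sums of 17 primitive endoderm genes were 609.7 to 919.5 and 862.5 to 1243 CPM, and those of 14 trophoblast genes 103.4 to 183.6 and 67.2 to 168.2 CPM. The part of other cell states in the RNA results was not tested, and in bulk RNA fewer cells of a type and less RNA per cell cannot be told apart.

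The sequence under 35 class 1 peaks could be searched in part, because these peaks overlap the promoter window of their nearest gene, the 250 bases before and 50 from the transcription start. RefSeq promoter sequences (build GRCm38.p6) were matched for 27 of the 35. The ERR core site AAGGTCA, read on both strands (TGACCTT on the other), was in a window of 2 of these 27 genes. It was in 4.72% of all 32851 windows of 300 bases, a share of windows and not of genes. Its extended form TCAAGGTCA, which contains it, was in 0.423% of windows. Whole windows were searched, although the peak covered the whole window in only 7 of the 27. The 2 of 27 is thus no rate for the sequence under class 1 peaks. The 250 bases upstream of the start are shown for these 2 genes, Kat7 and Acsl6, with the core site in capitals.
Kat7: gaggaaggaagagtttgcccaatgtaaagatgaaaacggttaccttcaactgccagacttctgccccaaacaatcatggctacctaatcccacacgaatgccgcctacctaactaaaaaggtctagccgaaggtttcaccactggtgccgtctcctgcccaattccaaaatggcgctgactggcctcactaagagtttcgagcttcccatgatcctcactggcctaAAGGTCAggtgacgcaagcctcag
Acsl6: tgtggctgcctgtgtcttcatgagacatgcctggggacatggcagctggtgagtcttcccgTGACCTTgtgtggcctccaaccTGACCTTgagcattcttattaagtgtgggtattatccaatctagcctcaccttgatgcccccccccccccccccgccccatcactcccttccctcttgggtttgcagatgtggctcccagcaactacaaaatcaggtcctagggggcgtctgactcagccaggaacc
The Kat7 stretch is chr11:95310247-95310496 on the minus strand and that of Acsl6 is chr11:54303574-54303823 on the plus strand, both in GRCm38.p6. Kat7, a histone acetyltransferase, has its core site 24 bases before the start, inside a class 1 peak that runs to 9 bases past the start. Acsl6, a synthetase that activates long-chain fatty acids, has 2 core sites, which begin 189 and 167 bases before the start, and the second is part of the extended form. RefSeq lists 3 starts for Acsl6, and the stretch belongs to one of them. Which of the 3 matches the start used for the peak was not determined. A match is a description of letters, and the other class 1 peaks were not searched.

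With DOX, class 1 stood out by how little of its height was missing in mitosis, and by low heights in interphase. The library medians of class 1 were 0.78, 1.18, 0.85 and 1.01 in interphase replicates 1 to 4, on a scale of log2 reads per kb per M reads, a mean of 0.95 ± 0.18 (SD, n = 4). In mitosis they were 0.86, 0.41, 0.07 and 0.70, a mean of 0.51 ± 0.35 (SD, n = 4). Class 1 took 0.106% to 0.155% of the reads of an interphase library and 0.0625% to 0.118% of those of a mitosis library. The groups of medians overlap, since mitosis replicate 1 lies above 2 of the interphase libraries.

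Class 2 and class 3 were higher than class 1 in each interphase library, with means of library medians of 2.24 ± 0.62 and 2.24 ± 0.58 (SD, n = 4), and Lost peaks had 1.5 ± 0.65. In mitosis the means were 0.47 ± 0.20, 0.31 ± 0.16 and -0.73 ± 0.33 for class 2, class 3 and Lost (SD, n = 4). Class 1 thus stood 0.61 ± 0.52 below the median of all peaks in interphase and 1.06 ± 0.55 above it in mitosis (SD, n = 4). All 4 interphase libraries had class 1 below the median of all peaks, by 0.06 to 1.31, and all 4 mitosis libraries had it above, by 0.54 to 1.81.

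The median class 1 peak was 0.49 lower in mitosis than in interphase as deposited. It was 1.63 higher once each library was centred on the median of all its peaks and 1.68 higher when scaled to the reads in peaks. These scalings give class 1 relative to all peaks and take out any change they share, so they do not show a rise in height. The same deposited difference was -1.79 for class 2, -1.96 for class 3 and -2.32 for Lost. By replicate number, the class 1 difference was 0.06, -0.76, -0.81 and -0.39, so that replicate 1 did not share the sign of the others. Number 2, the wild-type line, lay inside the range of the EKOiE numbers.

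**Figure D1:**
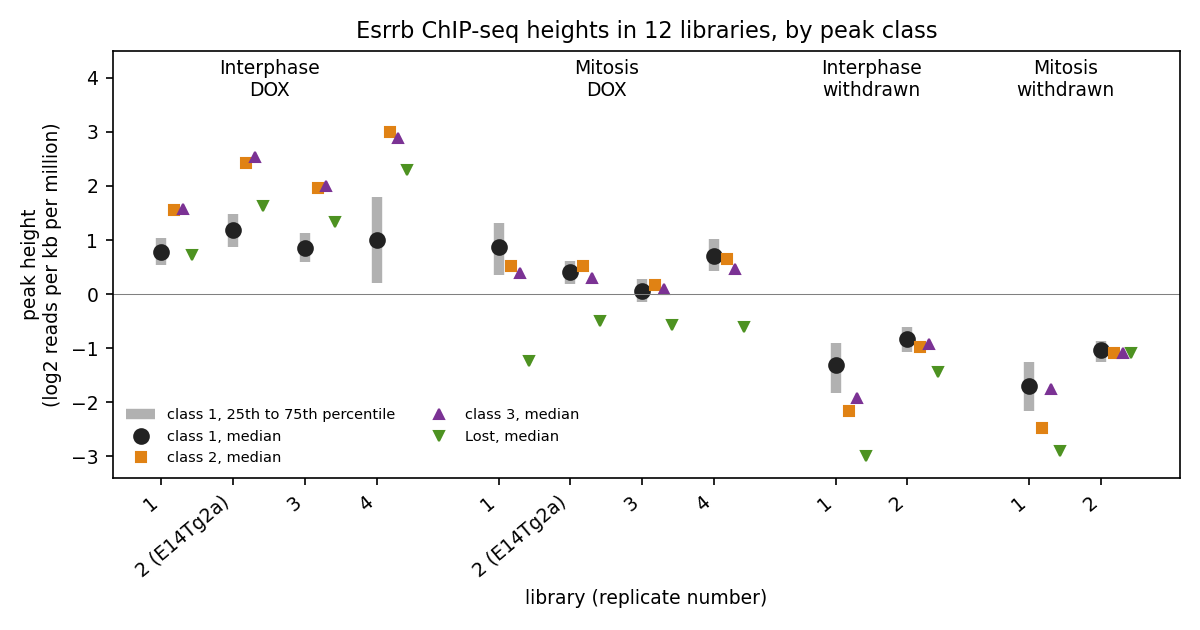
Heights of Esrrb peaks (log2 reads per kb per M reads, vertical axis) in the 12 ChIP-seq libraries (horizontal axis, by group and replicate number). Black points are class 1 medians, grey bars run from the 25th to the 75th percentile of class 1, and the coloured points are medians of class 2, class 3 and Lost. Class 1 lies under classes 2 and 3 in interphase with DOX and within 0.5 of them in mitosis with DOX.

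In 99 class 1 peaks the group mean was higher in mitosis than in interphase, 22% of the class, against 0.728% of all peaks. Interphase DOX replicate 4, the smallest library, bears on this count. Without both libraries of number 4 it was 61, of which 57 were among the 99. Mitosis was above interphase in all 4 numbers for 5 peaks and below in all 4 for 173, counts that were not made over all peaks. When every library was compared with every other, 113 class 1 peaks had all mitosis values under all interphase values, against 88.0% of all peaks. Another 334 overlapped and 3 had all mitosis values above (0.0206% of all peaks). These 3, nearest to Olfm4, Gm94 and Csmd1, were singled out after their values were seen.

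After removal of DOX, class 1 heights were lower in both states as deposited. The class 1 medians were -1.32 and -0.84 in the withdrawn interphase libraries, a mean of -1.08 ± 0.34, and -1.70 and -1.04 in the withdrawn mitosis libraries, a mean of -1.37 ± 0.47 (SD, n = 2). All 4 lie below every DOX library. The median difference, DOX minus withdrawn, was 1.85 in mitosis, against 1.33 for all peaks, and 0.45 or 0.48 under the centred and rescaled settings. The deposited mitosis difference was 2.20 in class 2, 1.64 in class 3 and 1.21 in Lost peaks. In interphase the class 1 difference was 2.18 against 3.74 for all peaks, and turned to -1.48 and -1.43 under the centred and rescaled settings. These settings take out any change shared by all peaks. Their minus sign thus means a smaller fall than at other peaks and not a rise on withdrawal. Reads in all peaks were 3.11% to 9.83% of interphase DOX libraries and 0.303% and 0.654% of withdrawn ones. Without the wild-type library of each state, so with EKOiE alone, the deposited differences were 1.90 in mitosis and 2.08 in interphase.

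In mitosis 449 of the 450 peaks had every DOX library above both withdrawn ones, against 47.4% of all peaks. The share was 98.4% in class 2, 98.1% in class 3 and 39.4% in Lost peaks. It is thus common to the Bookmarked classes, which were set on these heights. In interphase 398 of the 450 had every DOX library above both withdrawn ones, against 99.4% of all peaks. The 52 exceptions in interphase came down to 1 when interphase DOX replicate 4 was left out. Of those 52, 43 were among the 99 peaks that were higher in mitosis. Within the 99, the median DOX minus withdrawn difference was 1.32 in interphase and 1.96 in mitosis. Within the other 351 it was 2.29 and 1.81. In the authors' pooled columns, the smallest mitosis difference of any class 1 peak was 1.05, a level that 3787 of the 12579 Lost peaks reached too. The pooled interphase difference was at most 2.38, the 95th percentile of class 1 itself, in 69 peaks of class 2, 25 of class 3 and 348 Lost peaks. Since the threshold of the class is not known, peaks just inside and just outside it could not be set side by side.

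At the median, class 1 peaks were wider than Lost peaks and farther from a transcription start than those of each other class. Their median width was 1200 bp (range 600 to 3750), against 1350 bp for class 2, 900 for class 3 and 750 for Lost. The median distance from peak centre to the nearest transcription start of the RNA-seq table (mm9) was 27.3 kb, against 15.5 kb for class 2, 14.7 for class 3 and 21.6 for Lost. A start lay within 1 kb for 38 class 1 peaks (8.44%), a share close to the 7.99% of all peaks. Another 169 (37.6%) were inside a gene body and 128 (28.4%) outside genes with a start within 50 kb. The remaining 115 (25.6%) were outside genes and over 50 kb from a start, against 17.5% of all peaks and 13.8% of class 2. Peaks are not replicates, and no test was made of these shares.

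The median gap from a class 1 peak to the next Esrrb peak was 53.6 kb, and 43 peaks had one within 5 kb and 212 within 50 kb. The next peak was Lost for 363 of the 450, class 1 for 37, class 2 for 37 and class 3 for 13. The same counts were not made for the other classes, and Lost peaks are 12579 of the 14559. On chromosome X were 3 class 1 peaks (0.667%), against 2.15% of all peaks, 0.822% of class 2 and 0.955% of class 3.

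Within class 1, distance to a start moved with the mitosis difference. The 69 peaks that were lower in mitosis by 1 or more had a median distance of 10.5 kb, and the 152 lower by 0.5 to 1 had 14.5 kb. The 130 lower by less than 0.5 had 31.2 kb, and the 99 higher in mitosis 106.5 kb. Of those 99, 60 (60.6%) were over 50 kb from a start, against 16 of the 69 (23.2%). Only 2 of the 99 had a start within 1 kb, against 9 of the 69. The limits between these groups were chosen after the values were seen.

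Across the 450 peaks, log10 distance and the mitosis minus interphase difference had a Pearson r of 0.41 and a Spearman rho of 0.40. By replicate number r was 0.41, 0.31, 0.42 and 0.30, and without number 4 it was 0.45. The same r was -0.06 in class 2, -0.24 in class 3 and -0.07 in Lost. These peaks share libraries and depth, and the base composition under them was not measured, so r is a description with no p. The 61 peaks higher in mitosis without number 4 had a median distance of 176.9 kb, and the others 22.1 kb. Heights in mitosis and interphase did not move together over class 1 (r = 0.0065), and wider peaks were somewhat lower in mitosis (r = -0.25).

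**Figure D2:**
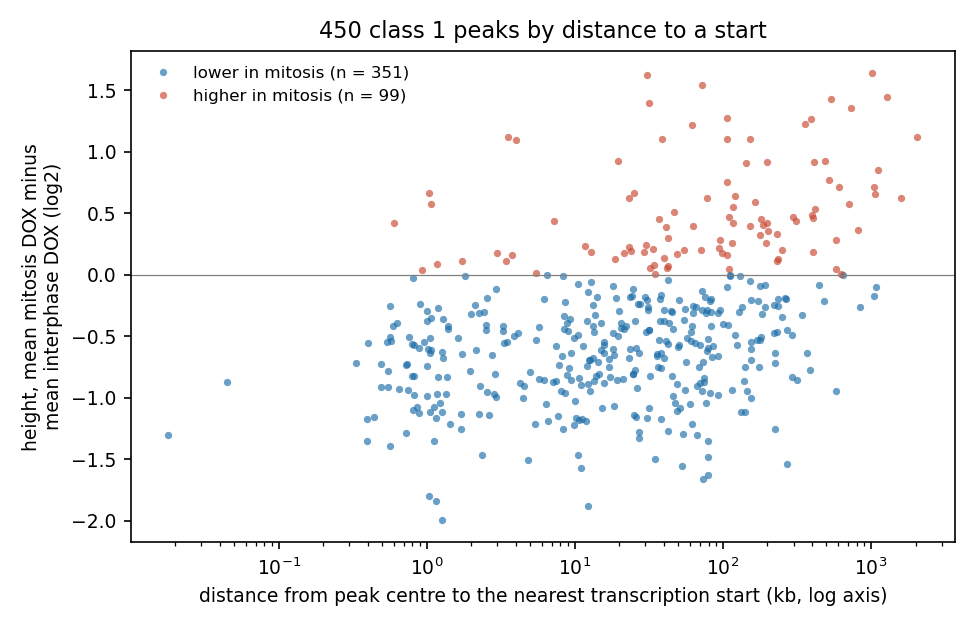
Each point is 1 of the 450 class 1 peaks, placed by the distance from its centre to the nearest transcription start (kb, log axis) and by its mean height in mitosis minus interphase with DOX (log2). The 99 red points above 0 lie mostly to the right, with a median distance of 106.5 kb, and 2 of them are within 1 kb of a start.

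The same heights of the same peaks, grouped by place, gave the same order. Peaks within 1 kb of a start had library medians of 1.11 ± 0.23 in interphase and 0.32 ± 0.21 in mitosis (SD, n = 4). Peaks outside genes and over 50 kb from a start had 0.82 ± 0.21 and 0.62 ± 0.44. In mitosis the lowest and highest library medians were 0.02 and 0.49 within 1 kb of a start and 0.10 and 1.14 over 50 kb away. No test was made of this order, since the heights set the class.

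The highest mitosis height in class 1 was at chr17:39979951-39981150, with a mean of 2.12 and library values of 0.92, 2.72, 3.04 and 1.81. Its nearest starts in the RNA-seq table are those of Esp15 and Esp38, and in RefSeq gene order an 18S ribosomal RNA pseudogene, Rn18s-rs5, and the lncRNA AY036118 lie between them. Its interphase DOX values, 0.37, 2.07, 3.18 and 3.27, and its withdrawn values of -4.99 and 0.13 in interphase and -2.16 and 0.94 in mitosis, spread widely. The copy number of this region and the placing of its reads were not tested. Without it the class 1 difference was the same to 2 decimals.

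Pabpc4, which encodes a cytoplasmic poly(A)-binding protein, came next. Its peak, chr4:122958751-122959950, is centred 0.803 kb upstream of the start, and its mitosis values of 2.09, 1.13, 1.19 and 1.93 overlap the interphase ones of 1.71, 2.41, 2.20 and 0.13. The withdrawn libraries were all lower, between -1.33 and -0.24. Thus this peak had about the same mean in mitosis (1.58) as in interphase (1.61).

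The next 3 in height lay at very different distances from their nearest gene. Tenm2, an adhesion receptor of the teneurin family, was 1063632 bp from its peak (chr11:37820701-37822050), which had 2.34, 0.98, 0.87 and 1.98 in mitosis against 0.88, 1.57, 1.26 and -0.15 in interphase. Edn3, an endothelin ligand, was 25.3 kb away from its peak (chr2:174559951-174561900), which had 2.33, 1.10, 0.60 and 1.92 in mitosis against 1.69, 1.90, 1.73 and 2.13 in interphase. Snap91, a clathrin assembly protein, had a peak 1.07 kb upstream (chr9:86775751-86776950), with 2.31, 1.13, 0.76 and 1.58 in mitosis against 1.12, 1.85, 1.38 and -0.87 in interphase. In all 3 peaks mitosis replicates 1 and 4 were the high ones and the groups overlap. The peaks nearest Hs3st5, Fzd8, Slc35f1, Marchf1 and Plcl1 had mitosis means of 1.43, 1.42, 1.39, 1.37 and 1.36, and lay 199419 to 627978 bp from the start. Hs3st5 encodes a heparan sulfate sulfotransferase and Fzd8 a Wnt receptor.

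The 5 peaks with the largest mitosis minus interphase differences were nearest to Olfm4 (1.64), Dph6 (1.63), Gm94 (1.55), Diap3 (1.44) and Htr2c (1.43). In each of them interphase DOX replicate 4 was far under the other interphase libraries. The Olfm4 peak, chr14:81417151-81418050, had -0.40, -0.20, -0.51 and -3.27 in interphase and 1.72, 0.16, -0.16 and 0.46 in mitosis, with no overlap. Its withdrawn libraries had -0.77 and -1.38 in interphase, so the interphase DOX mean (-1.09) was not above the withdrawn mean (-1.08). That low mean rests on replicate 4, since the other interphase DOX libraries lay above both withdrawn ones. Such a mean was found at 4 class 1 peaks, all among the 99 higher in mitosis, and was not counted over all peaks. The Dph6 peak, chr2:114511051-114511650, had 0.29, 0.91, 0.13 and -2.83 in interphase and 2.12, 0.85, 0.75 and 1.3 in mitosis. Here the interphase group overlapped its withdrawn libraries (0.09 and -0.51), whereas in mitosis the withdrawn ones were lower (-0.89 and -1.77). The peak nearest Csmd1 (chr8:17123851-17124600), the third without overlap, had -0.20 to 0.41 in interphase and 0.45 to 1.59 in mitosis. Its interphase replicate 4, at -0.20, was the lowest of its group but not far from the others.

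At the other end, 3 of the 5 peaks with the lowest mitosis minus interphase differences were centred 1.04 to 1.27 kb from a start, those of Nfe2l1, Kat7 and Nt5c3b. Nfe2l1 encodes a stress-responsive transcription factor of proteasome genes. Its peak (chr11:96691801-96693300), 1.27 kb upstream, had 1.29, 2.31, 1.64 and 3.19 in interphase and 0.24, -0.03, -0.03 and 0.26 in mitosis. Kat7, whose promoter is shown above, had 0.87, 2.30, 1.88 and 2.88 in interphase and 0.12, 0.06, 0.08 and 0.46 in mitosis at chr11:95171551-95173650. In both peaks all mitosis libraries lay under all interphase libraries, and at Kat7 mitosis replicate 4 stood above the other 3. The peaks near Apod, a lipocalin, and Nt5c3b, a nucleotidase, differed by -1.88 and -1.84, and the one 73.3 kb from Chst15, a chondroitin sulfotransferase, by -1.66.

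**Figure D3:**
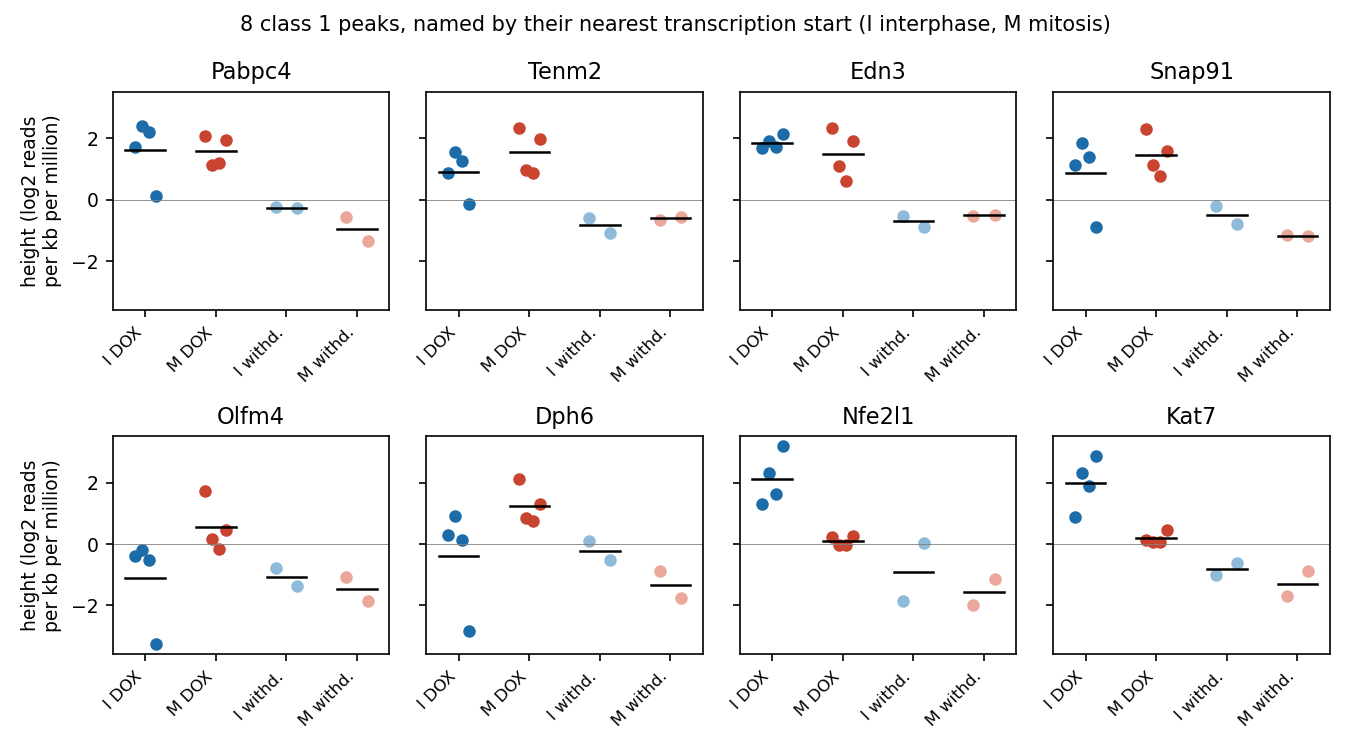
Height (log2 reads per kb per M reads) of 8 class 1 peaks in the 12 libraries, by group (I interphase, M mitosis), with 1 point per library in order of replicate number and a bar at the group mean. Olfm4 and Dph6 have higher means in mitosis (0.55 and 1.25) than in interphase (-1.09 and -0.38), Nfe2l1 and Kat7 have higher means in interphase (2.11 and 1.98) than in mitosis (0.11 and 0.18), and in the upper row the 2 DOX groups overlap.

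Only 2 class 1 peaks were centred within 250 bp of a start. They were nearest to Ldlrad2 and to Txndc12, a thioredoxin-like protein of the endoplasmic reticulum, with mitosis means of 0.13 and 0.09 and interphase means of 1.00 and 1.39. The 3 widest class 1 peaks were nearest to Zfp217 (3750 bp), Bnip1 (2850 bp) and Ranbp6 (2700 bp). Their mitosis means were -0.44, 0.46 and 1.05.

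To ask what happens to genes beside these peaks when DOX is removed, each peak was joined to the nearest transcription start within 50 kb. This gave 277 genes for 281 peaks, and 169 peaks had none. Eps15l1, Kctd16, Slc25a42 and Vstm2b each had 2 class 1 peaks. The joined genes shared 92 members with those beside Lost peaks (33.2% of class 1 genes, 1.69% of Lost genes), 17 with class 2 and 5 with class 3. No other Esrrb peak was joined to 180 of the 277. In exons 236 passed the filter on low counts (85.2%, against 69.4% of all genes) and 241 passed in introns.

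Esrrb itself, the gene under DOX control, was lower in all 9 pairs of libraries with the same phase and number. It had 200.5, 274.5 and 245 CPM with DOX and 138, 195 and 156 CPM without in early G1, and 319, 281 and 342 against 159, 162 and 178 CPM in late G1. In G2 it had 300, 261 and 254 against 195, 196 and 187 CPM. Only the fall in late G1 passed in a single phase, by 0.94 ± 0.14, and those in early G1 and G2 were -0.58 ± 0.13 and -0.52 ± 0.13 (SE, n = 3; edgeR adjusted p = 0.00385, 0.12 and 0.0699; with the replicate block 0.000395, 0.0138 and 0.0123). Averaged over phases its exonic RNA fell by 0.68 ± 0.08 on the log2 scale (SE; edgeR adjusted p = 3.75e-05). Its intronic change was -0.13 ± 0.07 (edgeR adjusted p = 0.388). Counts do not separate the transgene from the knocked-out locus.

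In single phases few genes beside class 1 peaks passed (edgeR, Benjamini-Hochberg adjusted over all genes tested). In early G1 there was 1 fall and no rise (0.424% of 236), Tfcp2l1, where 0.163% of all genes passed (0.121% as falls and 0.0426% as rises). In late G1 there were 2 falls, Tfcp2l1 and Acsl6 (0.847%, against 0.461% of all genes, 0.277% as falls and 0.185% as rises). In G2 there were also 2 falls, Tfcp2l1 and Rab12 (0.847%, against 0.972% of all genes, 0.632% as falls and 0.341% as rises). DESeq2 called 2, 10 and 14 class 1 genes in the 3 phases, against 0.986%, 2.41% and 3.26% of all genes. The call in early G1 was lost without any 1 of 5 of its 6 libraries, the exception being DOX replicate 1. The calls in late G1 were lost without any 1 of its 6 libraries, and in G2 0 to 5 genes passed.

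The same replicate number marks libraries that deviate together, and with the number as a block the calls were more. They were 14 in early G1 (6 falls, 8 rises), where 4.03% of all genes passed, 2.2% as falls and 1.83% as rises. In late G1 they were 30 (13 falls, 17 rises), against 9.04% of all genes, 4.24% as falls and 4.8% as rises. In G2 they were 41 (20 falls, 21 rises), against 11.2% of all genes, 5.44% as falls and 5.77% as rises. As shares of the 236 genes these are 5.93%, 12.7% and 17.4%.

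Averaged over the 3 phases, 52 of the 236 genes passed (22%), with 30 falls and 22 rises, against 16.9% of all genes (8.47% as falls, 8.43% as rises). DESeq2 called 59, against 20.8% of all genes. The shares beside class 2, class 3 and Lost peaks were 23.1%, 22.4% and 21.7%, close to that of class 1. With the replicate block 101 passed (56 falls, 45 rises, 42.8%, against 36.0% of all genes, 18% in each direction). Libraries of 1 number and DOX state deviated together across phases (correlations of 0.21 to 0.77), so phases are not independent and these averaged p-values are too small. When counts were first summed over phases, which leaves 3 libraries against 3, no class 1 gene passed without the block (0.155% of all genes did, and 44 of 243 class 1 genes had an unadjusted p under 0.05, 18.1% against 14% of all genes). With the block 39 of 243 passed, 19 falls and 20 rises, against 11.7% of all genes (5.02% as falls, 6.66% as rises), and 32 of them were among the 52.

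The median log2 change over the 236 genes was -0.02, beside -0.0044 over all genes tested. By subset, 32 of 151 genes with no other Esrrb peak passed (21.2%), as did 20 of 85 with another one (23.5%). Of genes with a class 1 peak within 1 kb of the start 6 of 36 passed (16.7%), and of those beside a peak higher in mitosis 7 of 31 (22.6%). These shares were not tested against each other or against the 16.9% of all genes.

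Tfcp2l1, a LIF-responsive transcription factor that helps to hold the naive state, had the smallest adjusted p. Its class 1 peak is in the gene body, 1.23 kb past the start, at chr1:120525151-120526350, with mean heights of 1.51 in interphase and 0.47 in mitosis, and 4 other Esrrb peaks were joined to the gene. It had 194, 286 and 281 CPM with DOX against 132, 146 and 137 CPM without in early G1. In late G1 it had 217, 279 and 279 against 141, 172 and 138 CPM, and in G2 216, 279 and 298 against 110, 143 and 137 CPM. All 9 DOX libraries lie above all 9 withdrawn ones. The log2 change was -0.90 ± 0.16 in early G1, -0.80 ± 0.16 in late G1 and, with the largest size of the 3, -1.05 ± 0.16 in G2 (SE, n = 3; edgeR adjusted p = 0.0394, 0.0409 and 0.0047). In introns it fell by 0.72 ± 0.11 averaged over phases (edgeR adjusted p = 0.00102).

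Acsl6, the acyl-CoA synthetase whose promoter is shown above, has its peak 0.55 kb upstream of the start at chr11:54116251-54117300. Its DOX values of 5.56 to 6.98 CPM lay above all withdrawn values of 3.43 to 5.10 CPM. It fell by 0.65 ± 0.10 averaged over phases and by 0.85 ± 0.18 in late G1 (SE; edgeR adjusted p = 0.000503 and 0.0422). Its intronic change was -0.09 ± 0.14.

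Rab12, a small GTPase of membrane traffic, has a peak 34.9 kb past its start, at chr17:66833101-66835200, and no other Esrrb peak joined to it. It had 15.7, 15.8 and 17.5 CPM with DOX and 10.2, 11.04 and 10.4 CPM without in G2, where it fell by 0.66 ± 0.14 (SE; edgeR adjusted p = 0.0255). In late G1 the groups overlap and the change of -0.26 ± 0.14 did not pass (edgeR adjusted p = 0.456).

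The other 9 falls with the smallest adjusted p, averaged over phases, ran from 0.26 to 1.25 on the log2 scale and were lower in all 9 pairs. Cers4, a ceramide synthase, fell by 0.52 ± 0.09, Abca3, a lipid transporter, by 0.75 ± 0.15 and Slc44a3, a choline transporter-like protein, by 1.25 ± 0.22 (SE). Kazn, which encodes a cell junction protein, fell by 0.44 ± 0.08, Limk2, a kinase of actin regulation, by 0.38 ± 0.07 and Cd97, an adhesion G-protein-coupled receptor, by 0.61 ± 0.12. Rabac1, which binds Rab proteins, fell by 0.55 ± 0.10, Sh3gl1, an endophilin, by 0.26 ± 0.06 and Wdr5, a subunit of histone methyltransferase complexes, by 0.33 ± 0.07. Their edgeR adjusted p ran from 0.00091 to 0.00462. Slc44a3 counts were low, with 1.94 to 3.29 CPM with DOX and 0.38 to 1.91 CPM without. Abca3, Limk2 and Sh3gl1 had no other Esrrb peak.

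The 12 rises with the smallest edgeR adjusted p (0.000634 to 0.0114) ran from 0.29 to 1.01 and were higher in all 9 pairs, except for Bace1 in 8. Rreb1, a zinc finger transcription factor downstream of RAS signalling, had 6.46 to 11.1 CPM with DOX and 11.98 to 18.4 CPM without, with no overlap. It rose by 0.80 ± 0.13 in exons and 0.32 ± 0.08 in introns (SE; edgeR adjusted p = 0.000634 and 0.0355). Its peak is 1.73 kb upstream, at chr13:37915351-37917000.

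Regulators of RNA or chromatin are given next, grouped by textbook role after their values were seen. Hnrnpu, a nuclear RNA-binding protein, rose by 0.67 ± 0.11 from a median of 675 to one of 1030 CPM, and all withdrawn values lay above all DOX values. Papola, a poly(A) polymerase, rose by 0.32 ± 0.07. Cbx1, the heterochromatin protein HP1 beta, rose by 0.65 ± 0.12, with 77.3 to 155.6 CPM with DOX and 125.7 to 233.9 CPM without, which overlap. Kdm3a, a demethylase of histone H3 lysine 9, rose by 0.52 ± 0.10. Cbx1 has its class 1 peak over the promoter, centred 0.724 kb upstream of the start.

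Etv1, an ETS transcription factor of FGF signalling, has a peak 25.3 kb upstream (chr12:39481201-39481950) that is the only Esrrb peak joined to it. The peak had 0.67, 1.39, 0.84 and -2.004 in interphase, the last from 2 reads, and 1.79, 0.62, 0.10 and 1.03 in mitosis. Its higher mean in mitosis (0.89 against 0.22) rests on interphase DOX replicate 4, since the other 3 interphase libraries average above the mitosis mean. Its RNA rose by 0.55 ± 0.10 in exons and 0.38 ± 0.09 in introns (SE; edgeR adjusted p = 0.00103 and 0.0258). It had 12.9, 14.7 and 18.3 CPM with DOX and 25.5, 23.5 and 23.7 CPM without in G2, with no overlap. The mitochondrial glycerol-3-phosphate dehydrogenase Gpd2 rose by 0.56 ± 0.10, the ubiquitin ligase Ube4b by 0.53 ± 0.13, Ahcyl1 by 0.47 ± 0.09 and the protease Bace1 by 0.40 ± 0.08. Cse1l, a nuclear export receptor, rose by 0.29 ± 0.07 and Ttn, the gene of the giant protein titin, by 1.01 ± 0.25. Ttn varied widely, from 92.5 to 450.6 CPM with DOX and from 399.9 to 1045 CPM without.

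**Figure D4:**
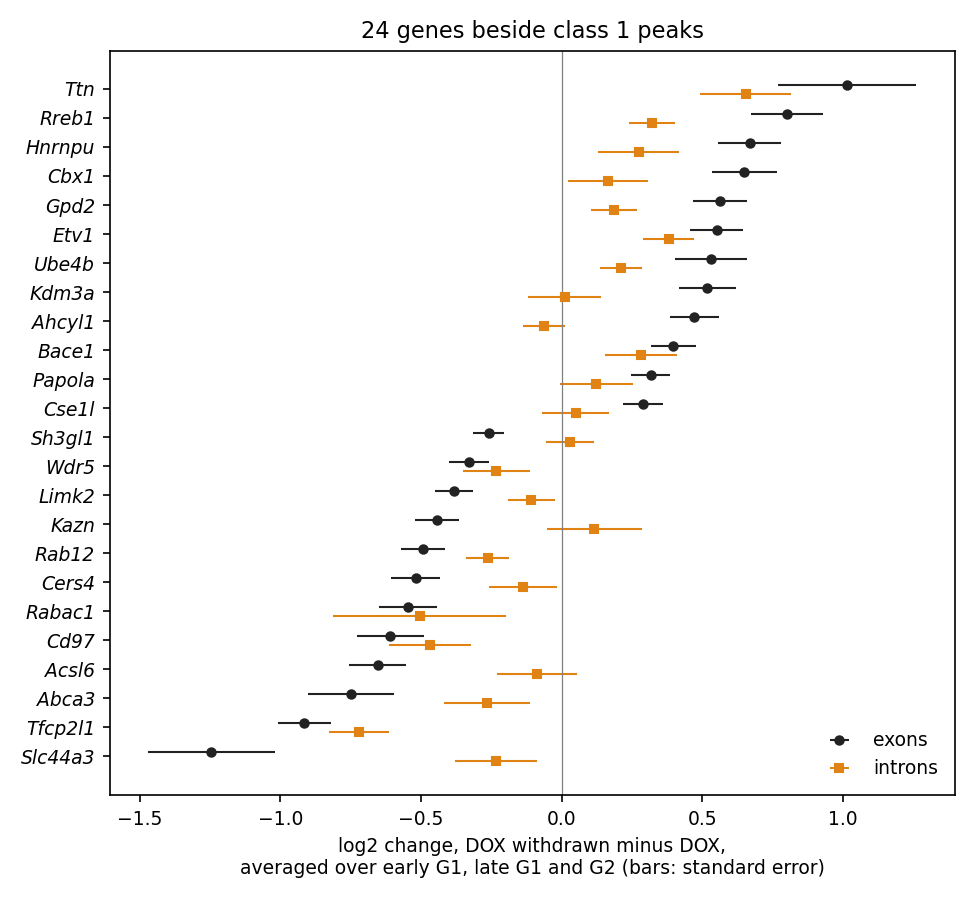
Log2 change on DOX withdrawal, averaged over early G1, late G1 and G2 (horizontal axis, bars are the standard error), for the 12 falls and 12 rises in exons with the smallest adjusted p among genes beside class 1 peaks. Intronic changes (orange) are smaller in size than exonic ones (black) in each of the 24 genes, as for Acsl6 at -0.09 against -0.65. The genes were picked by their exonic result, which favours large exonic changes. Over all genes tested the median size was also smaller in introns (0.133) than in exons (0.172). Tfcp2l1, Rreb1, Etv1 and Ttn passed in introns.

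In introns 8 of 241 genes passed when averaged over phases (3.32%, against 3.57% of all genes, 1.62% as falls and 1.95% as rises), with 3 falls and 5 rises. Tfcp2l1, Rph3a and Tcf15 fell, and Cux1, Etv1, Rreb1, Smyd4 and Ttn rose. With the replicate block 47 passed (15.2% of all genes did). Summed over phases, 0 passed without the block, where 16 of 247 had an unadjusted p under 0.05 (6.48%, against 6.73% of all genes), and 14 passed with it, against 0.0% and 3.48% of all genes. DESeq2 called 14 of 241, against 5.77% of all genes.

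With the block, 12 of the 236 genes passed in each of the 3 phases in exons. The same overlap was not counted over all genes tested, so the 12 are a list and not a result about class 1. Atf4, Cd97, Kazn, Limk2 and Tfcp2l1 fell, and Cbx1, Gpd2, Hnrnpu, Id1, Kdm3a, Rreb1 and Slc38a2 rose. Atf4, a stress-response transcription factor, Id1, a target of BMP signalling, and Slc38a2, an amino acid transporter, are named here after their values were seen. They differed widely between replicate numbers. Without the block Id1 changed by 0.68 ± 0.25 and Slc38a2 by 0.46 ± 0.18 averaged over phases (SE; edgeR adjusted p = 0.0698 and 0.0928).

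**Figure D5:**
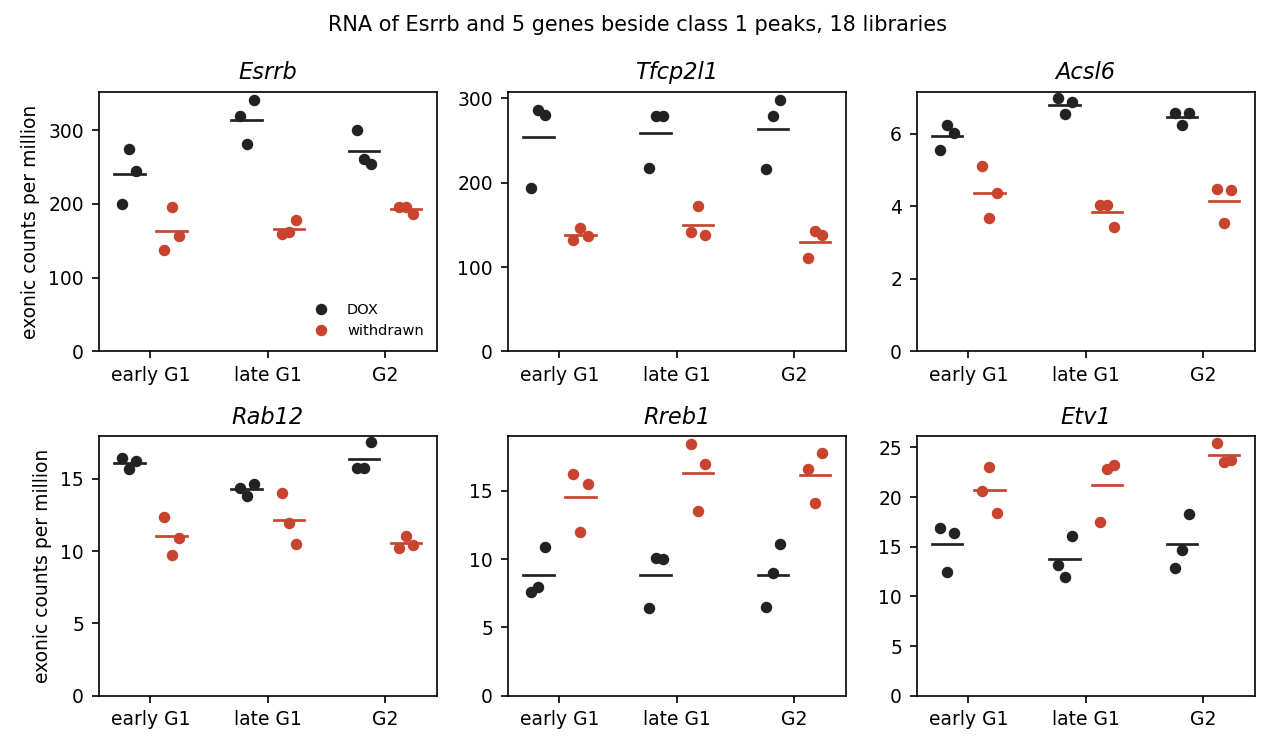
Exonic CPM of Esrrb and 5 genes beside class 1 peaks in the 18 RNA-seq libraries, by phase (horizontal axis), with DOX (black) and after 24 h of withdrawal (red); bars are group means. The 3 DOX libraries lie above the 3 withdrawn ones in each phase for Esrrb and Acsl6, and for Tfcp2l1, while for Rreb1 and Etv1 the withdrawn libraries are the higher ones.

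Members of the gene lists kept for this tissue that lay beside class 1 peaks are given next. Of all 20300 genes 277 lay beside one, so lists this short are too small to compare with that share. The list of 28 naive pluripotency genes held 1, Tfcp2l1, and as a whole had 6 falls and 1 rise averaged over phases, with a median log2 change of -0.16. The 16 LIF and STAT3 targets held 2, Tfcp2l1 and Ocln, with 6 falls, no rise and a median of -0.16. The 19 FGF and ERK feedback genes held Etv1 and Spred2, with 2 falls, 5 rises and a median of 0.06, and the 20 G1 cyclin and G1/S genes held Cdc6, with 2 rises, no fall and a median of 0.09. Lists of 18 core pluripotency, 21 formative and primed, 37 oxidative metabolism and 18 ERR receptor and partner genes held none. Of these, the core pluripotency list had 1 fall and 6 rises, and the formative and primed list no fall and 7 rises among the 20 members tested. The oxidative metabolism list, the classic targets of ERR receptors, had 11 falls and 2 rises among 35 tested, and the ERR receptor and partner list 2 falls and 5 rises among 17. Over all genes tested 8.47% fell and 8.43% rose.

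Spred2, an inhibitor of RAS and ERK signalling, rose by 0.40 ± 0.11 (SE; edgeR adjusted p = 0.0218). Ocln, the tight junction protein occludin, changed by -0.16 ± 0.11 and Cdc6, a DNA replication licensing factor, by 0.09 ± 0.13 (SE; edgeR adjusted p = 0.329 and 0.66). The Cdc6 peak, centred 0.727 kb upstream of the start, had heights of 1.64, 1.97, 1.75 and 2.27 in interphase and 1.12, 0.50, 0.29 and 0.57 in mitosis.

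The sorted phases were also compared with each other. With DOX, 0 genes beside class 1 peaks differed between late and early G1 or between G2 and early G1 (0.0% of all genes did), and the response to withdrawal differed between phases for 0 genes (0.0% of all genes). At an unadjusted p under 0.05 there were 0 and 7 of 236 for the phase contrasts (0.965% and 2.26% of all genes) and 0 and 0 for the differences in response (0.255% and 0.454% of all genes). DESeq2 and the replicate block also gave 0 adjusted calls, with 1 and 14 genes at an unadjusted p under 0.05 for the phase contrasts with the block (3.01% and 6.61% of all genes) and 1 and 4 for the differences in response (0.958% and 1.25% of all genes). The falls of Tfcp2l1 in 3 phases, Acsl6 in late G1 and Rab12 in G2 are therefore not shown to differ between phases. Nor are the phases shown to be alike. In the fit without the block, the shares of all genes with an unadjusted p under 0.05 were each below 0.05. No difference at all would give about that share, so this fit was too strict here for 0 calls to tell the phases apart or alike.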

How the data were processed

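The authors deposited peak heights for single libraries and for pools, here read as log2 reads per kb per M reads, because every height converts to whole reads within 0.05 read (100% of values). Peaks with no read stand at 0.9 read. The peak caller and class rule were not found in the labels or headers. Columns headed noco were taken as mitosis, although no label has that word. Build mm9 and the tools CASAVA 1.8, Bowtie and DESeq2 appear in the submitters' processing notes without a stated role. The authors deposited exonic and intronic counts per RefSeq transcript, per the file headers, for 20300 and 17916 genes. No label or header gives the counting tool or strand setting, so overlapping genes are uncertain. In these data 27 symbols turned into dates were restored by RefSeq accession.

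The 18 RNA-seq libraries entered 1 fit of 6 group means (edgeR 4.0.16, R 4.3.3; filterByExpr, TMM, quasi-likelihood F test, Benjamini-Hochberg at 0.05 over all 14092 exonic or 14075 intronic genes), tested on simulated data. Same-number libraries with and without DOX deviated together (exonic correlations of 0.11 to 0.53, all 9 over 0.1), so the numbers pair the samples, and fits with the number as a block were alternatives, as were DESeq2 1.42.0, other filters and windows, and libraries left out. CPM are TMM-scaled. No test was run on the heights, since they set the classes.

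Named peaks are the 10 highest in mitosis, the 5 largest and 5 smallest mitosis minus interphase differences, those centred within 250 bp of a start and the 3 widest. Named genes are the 12 falls and 12 rises with the smallest adjusted p averaged over phases, those called in a phase, list members and Esrrb. The members, lists and tests were chosen with earlier results of these data known.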

Additional observations from a re-analysis of the deposited data

Results flagged for a closer look

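In 54 sets of 4 DOX libraries, for the peaks named above, 5 had 1 library far from the other 3 (Dixon's test). Its gap to the nearest of them took most of the whole range. Chance gives about 5.0% of sets, but many of these peaks were named by the same heights. The 5 sets can therefore not be compared with that rate. At the peaks nearest Hs3st5, Olfm4 and Gm94 the odd library was interphase DOX replicate 4, with heights of -2.004, -3.27 and -2.68. This library has 10.7 M reads, the fewest of the 12. At the Kat7 peak mitosis DOX replicate 4 was high, at 0.46, and at the Zfp217 peak mitosis DOX replicate 3 was low, at -0.83. The part of depth in these values was not tested.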

How the results depend on the processing

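Scaling moved the heights most. Centring and rescaling give class 1 relative to all peaks and take out any change they share. Centred on all peaks and rescaled to reads in peaks, the mitosis minus interphase difference of -0.49 turned to 1.63 and 1.68, and DOX minus withdrawn in interphase turned from 2.18 to -1.48 and -1.43 and in mitosis moved from 1.85 to 0.45 and 0.48. Leaving out 1 library gave -0.58 to -0.32, 1.82 to 2.40 and 1.54 to 2.15 for these 3. The count of 99 peaks higher in mitosis ran from 61 to 126 without 1 replicate number, a check added after seeing the data.

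With the replicate block, the numbers of genes called were 14, 30 and 41 in early G1, late G1 and G2, 101 averaged over phases in exons and 47 in introns. DESeq2 called 2, 10 and 14 in the phases and 14 in introns. Without a filter on low counts late G1 had 1. Sums over phases, added after seeing the data, gave 0 in exons and 0 in introns, and 14 in introns with the block. Leaving out 1 library gave 0 to 1 in early G1, 0 to 0 in late G1, 0 to 5 in G2, 39 to 54 averaged in exons and 3 to 12 in introns. With genes within 10 kb (144 genes, of which 131 were tested in exons and 126 in introns) there was 1 call in G2, 25 averaged in exons and 4 in introns. Over all genes tested 0.972%, 16.9% and 3.57% passed in these fits. The share of peaks within 1 kb of a start was 16.4% from the peak edge, 2% within 0.5 kb and 24.4% within 5 kb. The cause of these shifts was not tested. Of the 26 named genes called in the averaged fit, all 26 lost the call when summed over phases without the block, and Sh3gl1 and Spred2 with it. Under DESeq2, other scaling, no filter, the block and each library left out, no gene of the naming rule changed its call in the fit averaged over phases. Calls in single phases did change, as given above.

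The few reads in the withdrawn libraries (median 7 to 33 per class 1 peak) and the 2 libraries of each limit the withdrawn heights.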
